A study of Mus musculus with 8 samples.

Results

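Ion channels and ion pumps set the membrane voltage, the cytosolic calcium and the acidity of organelles of the MIN6-K8 line, insulin-secreting cells grown from a mouse insulinoma, and the RNA of 60 genes of these families was followed here under selenomethionine (SeMet). The genes were chosen by symbol: of the 3278 genes in the deposited table, 60 belong to the channel and pump families (potassium, calcium, sodium, chloride and TRP channels, ligand-gated receptors, intracellular calcium channels and the sodium, calcium and proton pumps), and Kcnj11 was set aside. In the annotation 321 genes match the same symbols, so 261 of them were not analysed here. The table is by name a list of differentially expressed genes, so every member had been selected by the authors for differing between the groups. Of the 60 members, Trpc4ap and Grid2ip encode no channel although their symbols match, and Atp6v0c-ps2 is a processed pseudogene. They stay in the counts below.

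Both groups were wild-type MIN6-K8 cells of the background strain IT6, plated in 24-well dishes. The 4 control libraries came from cells left untreated and the 4 SeMet libraries from cells given 40 µM SeMet for 6 days. SeMet is methionine with selenium in place of sulfur, and according to its title the series asked how it alters insulin secretion by this line. A tumour-derived line is a model of the beta cell and not islet tissue, and the labels do not state whether the libraries of a group stem from different cultures. The p-values therefore rest on the spread between libraries alone, and that spread may be technical.

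In a beta cell, glucose metabolism closes ATP-sensitive potassium channels, the membrane depolarises, and voltage-gated sodium and calcium channels fire action potentials that let in the calcium that triggers exocytosis. Delayed-rectifier, calcium-activated and background potassium channels end these spikes and hold the resting voltage. Pumps restore the gradients: the sodium pump at the surface, SERCA in the endoplasmic reticulum, PMCA at the surface, and the vacuolar proton pump with its chloride exchangers in granules, endosomes and lysosomes.

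The depth is known only as an estimate of 8544454 to 11144953 reads per library in the listed genes, which takes the common step of a library's values as 1 read. All 10 fixed beta cell markers were listed, with a summed level of 2155267 to 2386110 normalised counts in the controls and 1940974 to 2166644 under SeMet. The sum is carried mostly by the hormone genes. By the limma adjustment over the listed genes 8 of the 10 were lower and 2 higher, beside 53.0% and 47.0% of all listed genes. Over the annotated genes 6 were lower and 1 higher, beside 38.2% and 33.1%. Of 22 markers of other islet cells, acinar, duct, stromal, endothelial, immune and neuronal cells, 4 were listed (Gcg, Irx2, Ppy and Col1a1). A marker missing from a list of differing genes may still be expressed, so these counts do not show which cells were present. The summed level of these 4 was 779.5 to 880.4 in the controls and 1273 to 1436 under SeMet. It was higher in all 4 treated libraries through the islet hormone and alpha cell genes, while Col1a1 fell. The part of this difference in the channel results was not tested.

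Channel and pump genes changed in both directions, by mostly small amounts. Of the 60 members, 26 rose and 34 fell (limma adjusted p under 0.05 over the listed genes), against 47.0% of all listed genes called higher and 53.0% called lower by the same rule, which called 100% of the table in one direction or the other. With the stricter adjustment over all 55450 annotated genes, 19 members rose and 25 fell, which is 44 in all, beside 33.1% and 38.2% of all listed genes and 71.4% in either direction. The control and treated libraries did not overlap for 52 members, 21 of them higher and 31 lower, beside 40.3% and 45.6% of all listed genes and 85.8% in either direction. A change of at least 1.2-fold was reached by 34 members, 16 higher and 18 lower, beside 21.4% and 26.1% of all listed genes. That is 56.7% of the members, against 47.5% of the table. The median log2 fold change was -0.16 among members and -0.13 among all listed genes, and the median size of the change was 0.30 and 0.25. Since the authors chose the genes of the table for differing, these shares are descriptions, and the family members are described below by the direction and size of their changes.

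**Figure D1:**
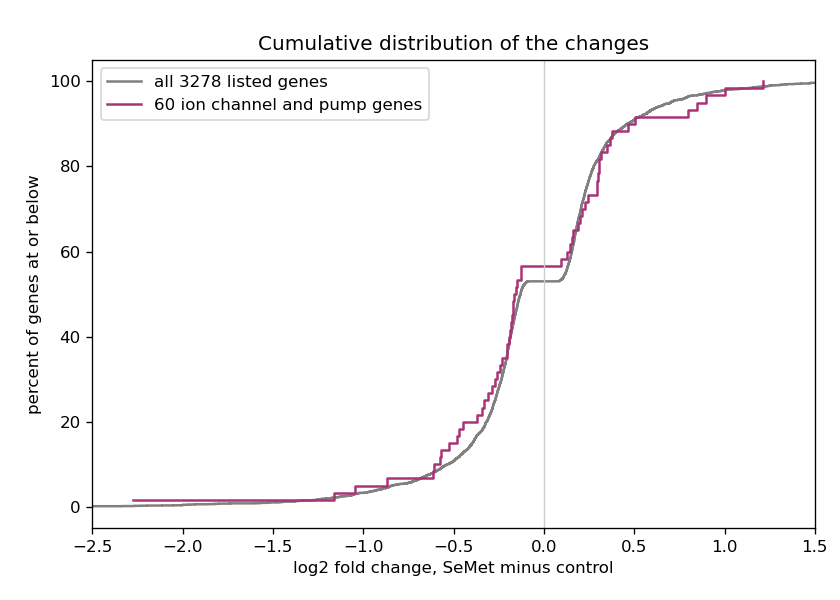
Cumulative share of genes (percent) against the log2 fold change, SeMet minus control, for the 60 members (purple) and all 3278 listed genes (grey). Both curves cross 0 with more genes on the lower side, 34 of 60 members, and the member median of -0.16 lies close to the -0.13 of the table.

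**Figure D2:**
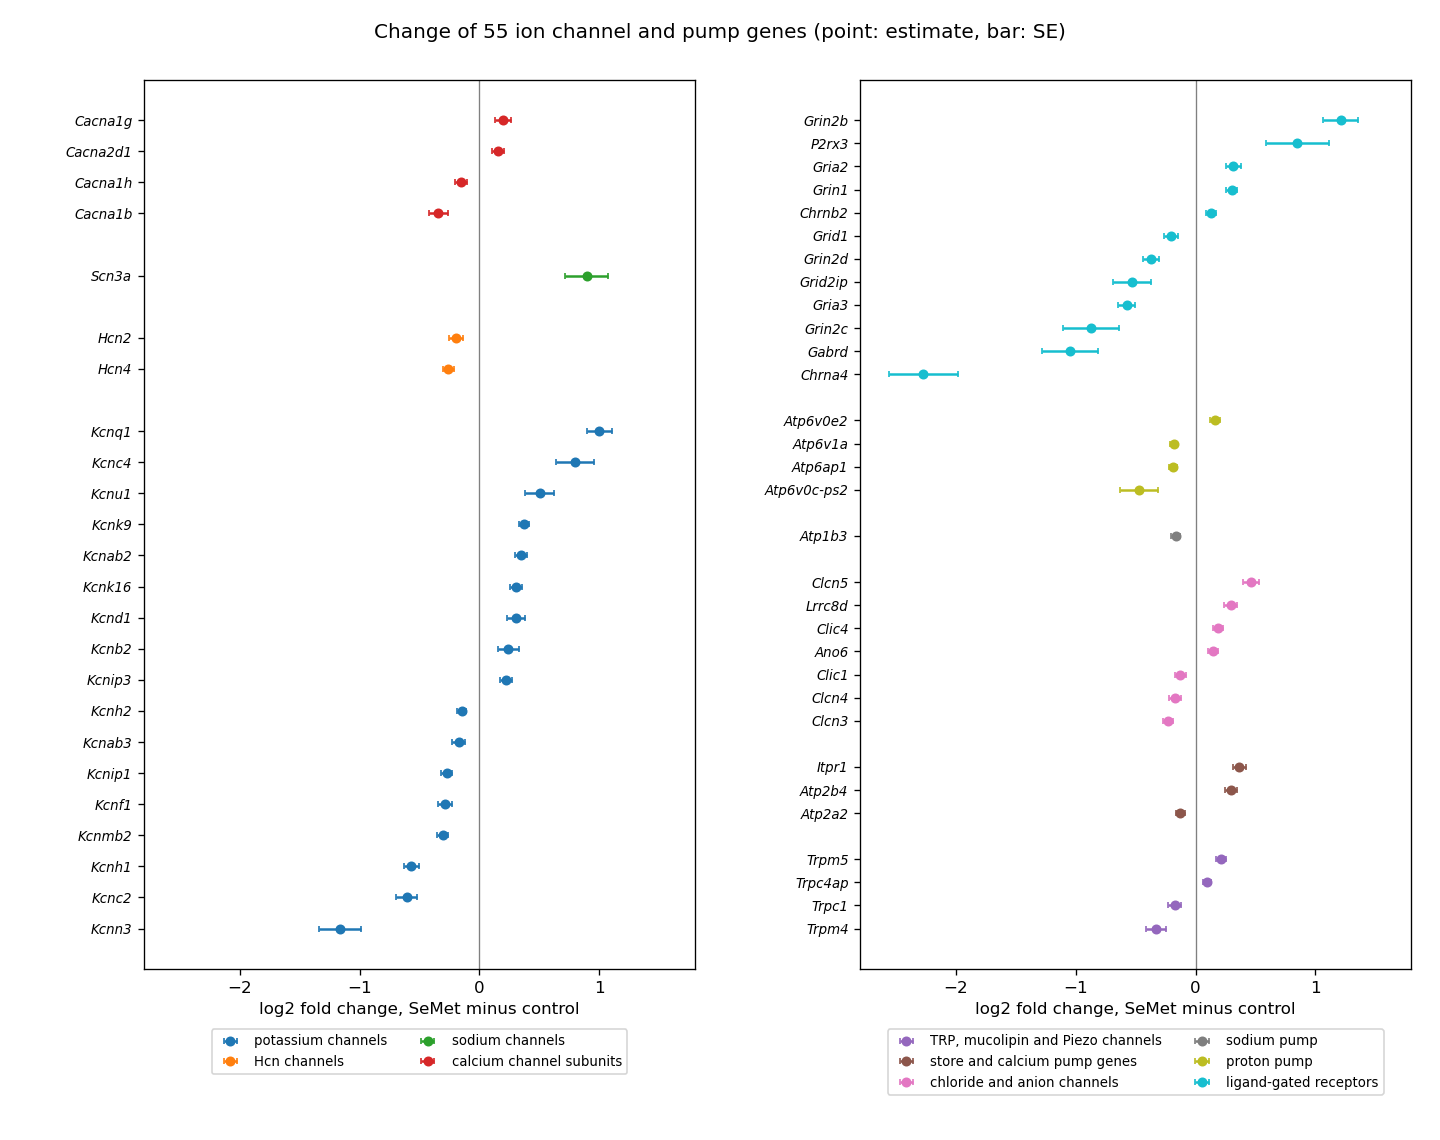
Log2 fold change, SeMet minus control, of 55 of the 60 members, grouped by family and coloured as in the key; bars are SE. Most families hold members on both sides of 0, and both listed Hcn genes lie below it.

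Values below are normalised counts, that is, read counts per gene that the authors scaled with a size factor for each library. Group values are mean ± SD with n = 4 in each group, and log2 fold changes, on the log2(value + 1) scale, carry their SE. Calls named as risen or fallen passed both adjustments unless a p is given that did not. Of all listed genes, 100% passed the adjustment over the listed genes and 71.4% the stricter one. Where levels of different genes are set side by side they are per kb of merged exons. Merged exons span all annotated transcripts of a gene, so an order of genes by this measure may differ from that of the transcripts expressed. Counts of higher, lower or not overlapping genes in a family are to be read beside the shares of all listed genes above.

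Potassium channels were the largest family, with 19 of 98 annotated genes listed. Of these, 9 were higher and 10 lower, beside 47.0% and 53.0% of all listed genes. Kcnb2, encoding the delayed rectifier Kv2.2, was at 539, 460.5, 434 and 465 in the controls and 474, 555, 636 and 589 under SeMet. Treated library 1 lay inside the control range, and the rise of 0.24 ± 0.08 met the adjustment over the listed genes and missed the stricter one (limma adjusted p = 0.0112 and 0.19). Kcnf1, a silent subunit that modifies delayed rectifiers, fell from 1746 ± 139 to 1427 ± 101 (-0.29 ± 0.06).

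The steepest fall among potassium channel genes with a mean of at least 100 was in Kcnc2, which encodes the fast, high-threshold channel Kv3.2. Kcnc2 (ENSMUSG00000035681, chromosome 10, 112271121 to 112467024) held 363, 345, 309.7 and 310.5 in control libraries 1 to 4 and 229, 236, 190.0 and 217 in treated libraries 1 to 4, so the groups were well apart (-0.61 ± 0.09 on the log2 scale, limma adjusted p = 7.18e-06). Its relative Kcnc4 (Kv3.4) moved the other way and rose from 41.4, 53.3, 67.6 and 62.8 in the controls to 89.9, 88.5, 119 and 93.6 under SeMet, a log2 fold change of 0.80 ± 0.16. Per kb of exon, Kcnc2 stood at 46.5 and Kcnc4 at 15.3 normalised counts in the controls, and at 30.5 and 26.7 under SeMet.

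Both listed ether-à-go-go genes fell. Kcnh1, encoding Kv10.1, held 1341, 1133, 1176 and 1119.8 in control libraries 1 to 4 and 828, 776, 739 and 868 in treated libraries 1 to 4. The highest treated library was well below the lowest control, and expression changed by -0.57 ± 0.06 on the log2 scale (limma adjusted p = 3.61e-07). Kcnh2, encoding the hERG channel, fell by less, from 2675 ± 64.0 to 2416 ± 38.5 (-0.15 ± 0.04), also without overlap. Per kb of exon Kcnh2 was the more abundant, at 552 against 163 normalised counts in the controls.

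Kcnq1 had the largest rise of any member with a mean of at least 100. It encodes Kv7.1, a slowly activating channel best known from heart and inner ear, and Kcnq1 (ENSMUSG00000009545, chromosome 7, 143106362 to 143427042) held 107, 98.8, 116 and 128 in control libraries 1 to 4 and 220.0, 223, 216 and 245 in treated libraries 1 to 4. The treated libraries were all above the controls, a 2.01-fold difference in means (log2 fold change 1.003 ± 0.10, limma adjusted p = 1.1e-07). Exons of the antisense RNA gene Kcnq1ot1 overlap 3.0% of Kcnq1, and without known strand settings their reads cannot be told apart there. The next largest rise was in Kcnu1, encoding the pH-sensitive channel Slo3 known from mouse sperm, at 85.1, 99.9, 111 and 123 in the controls and 159, 139.7, 135 and 158 under SeMet. The groups did not overlap, but they were separated by less than the range of the controls, and the log2 fold change was 0.50 ± 0.12.

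Both listed genes of K2P background channels rose. Kcnk9, encoding the acid-sensitive channel TASK-3, held 3058, 3016, 2899 and 3019.8 in control libraries 1 to 4 and 3695, 3939, 3779 and 4148 in treated libraries 1 to 4. The lowest treated library was above the highest control (log2 fold change 0.37 ± 0.04, limma adjusted p = 2.36e-07). Kcnk16 encodes TALK-1, a background channel found chiefly in pancreatic islets, and held 1955, 1988, 2051 and 1836 in the controls and 2620.4, 2274, 2353 and 2446 under SeMet. It too rose without overlap (0.31 ± 0.05). Per kb of exon, Kcnk16 led the listed potassium channel genes at 824 normalised counts in the controls, followed among the genes described by Kcnh2 at 552, Kcnmb2 at 455, Kcnf1 at 365, Kcnip3 at 270.5 and Kcnk9 at 244. In this order the control ranges of neighbours did not overlap. The ratio of Kcnk9 to Kcnk16 per kb was 0.30 ± 0.02 in the controls and 0.31 ± 0.03 under SeMet, a difference smaller than the spread between libraries.

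Genes of calcium-activated potassium channels were lower for both listed subunits. Kcnmb2, a beta subunit of the large-conductance BK channel that gives fast inactivation, fell from 1425 ± 69.2 to 1150.2 ± 32.9 (-0.31 ± 0.05). Kcnn3, encoding the small-conductance channel SK3, held 93.1, 71.0, 103 and 66.3 in control libraries 1 to 4 and 31.6, 30.7, 41.8 and 41.7 in treated libraries 1 to 4. All 4 treated libraries were below all 4 controls, a 2.28-fold difference at a low level (log2 fold change -1.16 ± 0.18, limma adjusted p = 1.4e-05). Lrrc26, a gamma subunit of BK channels, was taken from the partner list and rose from 37.7 ± 3.08 to 60.8 ± 8.73 (0.67 ± 0.16). The BK pore gene Kcnma1 was not among the listed genes.

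Auxiliary subunits of the A-type and Kv1 channels split as well. Kcnip1 binds the A-type Kv4 channels, and held 1502, 1406, 1387 and 1427 in the controls and 1171, 1199.6, 1150.2 and 1211 under SeMet, a log2 fold change of -0.27 ± 0.04 with no overlap. Kcnip3, another Kv4 partner that also acts as the transcriptional repressor DREAM, rose from 959 ± 45.8 to 1122 ± 48.9 (0.23 ± 0.05). The pore gene Kcnd1 (Kv4.1) rose from 443 ± 44.1 to 547 ± 49.9 (0.30 ± 0.08), with control 4 above SeMet library 1. The Kv4 partners Dpp6 and Dpp10, from the partner list, fell from 2148 ± 33.4 to 1868 ± 45.3 and from 2217 ± 49.2 to 1709 ± 87.6. Kcnab2, a beta subunit of Kv1 channels with an aldo-keto reductase fold, rose without overlap, with 928, 944, 1028 and 895 in control libraries 1 to 4 and 1192, 1211, 1171 and 1264 in treated libraries 1 to 4 (0.35 ± 0.05). Its relative Kcnab3 differed by -0.17 ± 0.05, which passed over the listed genes only (limma adjusted p = 0.00509 and 0.0861).

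**Figure D3:**
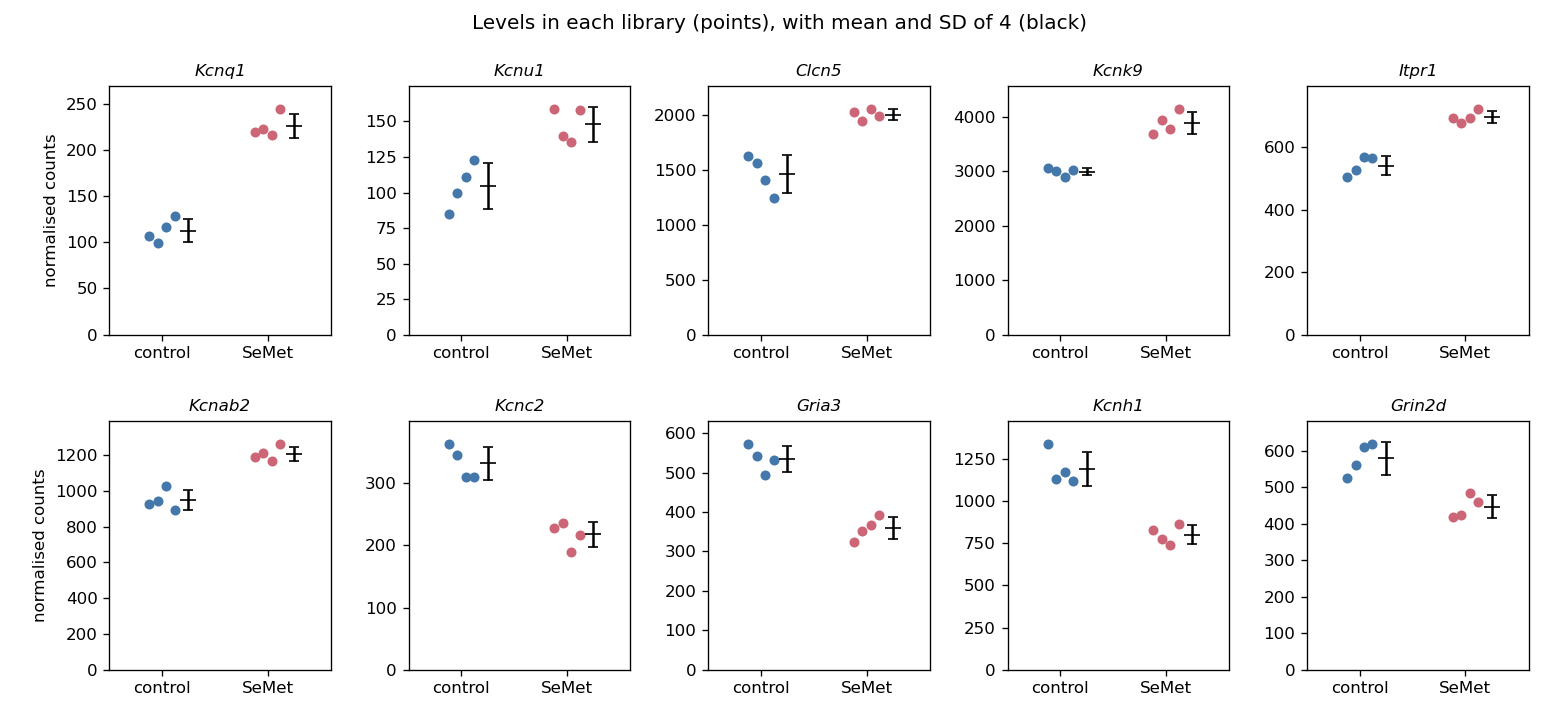
Normalised counts in each library for the 6 members with the largest rise (Kcnq1 to Kcnab2) and 4 of the 6 with the largest fall (Kcnc2 to Grin2d) among members with a mean of at least 100. Points are libraries, black marks are the mean and SD of 4; in all 10 panels the groups are apart, by the widest ratio in Kcnq1.

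Among the 16 of 38 genes on a list of beta cell excitability that were in the table, 7 were higher and 9 lower by the adjustment over the listed genes, beside 47.0% and 53.0% of all listed genes, and 5 and 6 by the stricter one, beside 33.1% and 38.2%. Their median log2 fold change was -0.14, against -0.13 over all listed genes. Both listed Hcn genes, of 4 annotated, were lower, beside 53.0% of all listed genes. Their channels carry a pacemaker current opened by hyperpolarisation. Hcn4 fell from 2199 ± 82.4 to 1838 ± 59.0 (-0.26 ± 0.04). Hcn2 was at 2807, 3017, 2797 and 2487 in the controls and 2580.2, 2550.1, 2301 and 2263 under SeMet, where SeMet libraries 1 and 2 lay above control 4, and its change of -0.20 ± 0.06 missed the stricter adjustment (limma adjusted p = 0.00444 and 0.0751).

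Of 14 sodium channel genes, 2 were listed, 1 higher and 1 lower. Scn3a encodes the pore subunit Nav1.3, one of the sodium channels of mouse beta cells, and held 93.1, 55.5, 76.1 and 47.8 in the controls and 127, 99.7, 127 and 144 under SeMet. The treated libraries were all higher, with 99.7 in the lowest against 93.1 in the highest control, a gap much smaller than the spread within either group (log2 fold change 0.90 ± 0.18, limma adjusted p = 0.00041).

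The 4 listed voltage-gated calcium channel genes, of 26 annotated, changed by small amounts. Of the 4, 1 passed the stricter adjustment, beside 71.4% of all listed genes. That was Cacna1b, the pore of the N-type channel Cav2.2, at 461, 472, 559 and 516 in the controls and 343, 384, 438 and 417 under SeMet (-0.34 ± 0.08, limma adjusted p = 0.0115 over the annotated genes). Its groups came close, 437.8 against 461.0, but did not overlap. The T-type pore genes, which open at low voltage, diverged: Cacna1h (Cav3.2) was at 2073, 2076, 1961 and 1994 in the controls and 1687, 1775, 1893 and 1936 under SeMet and Cacna1g (Cav3.1) at 453, 417, 446 and 416 in the controls and 453, 509, 538 and 492 under SeMet. For Cacna1g, SeMet library 1 lay just under control 1. Their changes of -0.15 ± 0.05 and 0.20 ± 0.07 passed over the listed genes only (limma adjusted p over the annotated genes = 0.0746 and 0.117). Cacna2d1, the alpha-2-delta subunit that carries channels to the membrane, held 4789, 4709, 4233 and 4157 in the controls and 4557, 4983, 5346 and 5031 under SeMet. Controls 1 and 2 lay above SeMet library 1, and the difference of 0.16 ± 0.05 also missed the stricter adjustment (limma adjusted p = 0.183). The L-type pore genes Cacna1c and Cacna1d, the usual route of calcium entry in beta cells, were not among the listed genes.

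Of 28 genes of TRP, mucolipin and Piezo channels, 4 were listed. Trpm5, encoding a cation channel opened by cytosolic calcium that is expressed in beta cells and taste cells, held 4555, 4590.5, 4659 and 4877 in control libraries 1 to 4 and 5630.1, 5528, 5429.5 and 5075 in treated libraries 1 to 4. It rose by a small amount in all treated libraries (0.21 ± 0.04). Trpm4, its closest relative and also opened by calcium, was lower in all of them, at 277, 265, 271 and 262 in the controls and 209.5, 241, 201 and 205 under SeMet (-0.33 ± 0.08). Per kb of exon Trpm5 was at 730.0 and Trpm4 at 24.8 normalised counts in the controls. Trpc1, a subunit of receptor-operated cation channels, fell from 1260.4 ± 77.7 to 1114 ± 37.3 with no overlap, which missed the stricter adjustment by little (limma adjusted p = 0.0521). Trpc4ap, an adaptor of a ubiquitin ligase and no channel, held 3549, 3655, 3626 and 3654 in the controls and 3834, 3858, 3824 and 3935 under SeMet, and its change of 0.09 ± 0.03 was the smallest of the 60 (limma adjusted p over the annotated genes = 0.224).

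In the calcium store and calcium pump genes, of which 3 of 21 were listed, the pump into the endoplasmic reticulum was slightly lower and both other listed genes were higher. Atp2a2 encodes SERCA2, which refills the store, and was the most abundant member, with 77663, 75389, 74838 and 71313 in control libraries 1 to 4 and 67245, 69294, 68111 and 69115 in treated libraries 1 to 4. Per kb of exon it stood at 12301 normalised counts in the controls, above Atp6ap1, the next, at 2420.4. All treated libraries were below all controls, yet the change of -0.13 ± 0.04 on the log2 scale met only the main adjustment (limma adjusted p = 0.00405 and 0.0686). Itpr1, the IP3 receptor that releases store calcium, held 504, 527, 568 and 565 in control libraries 1 to 4 and 695, 676, 692 and 723 in treated libraries 1 to 4, a clear separation (0.37 ± 0.06, limma adjusted p = 1.77e-05). Atp2b4, encoding the surface calcium pump PMCA4, was at 1667, 1610.1, 1614 and 1497 in the controls and 1809, 1993, 1952 and 2085 under SeMet and rose by a similar amount (0.29 ± 0.05).

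Of 21 calcium-handling partners, 8 were listed, 5 higher and 3 lower, beside 47.0% and 53.0% of all listed genes. Over the annotated genes the counts were 2 and 2, beside 33.1% and 38.2%. The sodium-calcium exchanger gene Slc8a1, which also exports calcium at the surface, rose from 832 ± 97.8 to 1103 ± 70.7 (0.41 ± 0.07). Mcub, which restrains the mitochondrial calcium uniporter, had the largest change on the partner lists and fell from 502 ± 52.6 to 223 ± 36.0 (-1.17 ± 0.11, limma adjusted p = 5.23e-07). Pkd2, encoding polycystin-2, fell by 0.25 ± 0.05, and the calcium-binding chaperone gene Calr rose by 0.16 ± 0.04.

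Chloride and anion channel genes, 7 of 30, split into 4 higher and 3 lower, beside 47.0% and 53.0% of all listed genes. None of the 7 overlapped between groups, nor did 85.8% of all listed genes. The 3 listed exchangers of chloride for protons in the endosomal pathway went different ways. Clcn5, encoding ClC-5 of early endosomes, held 1629, 1560.1, 1403 and 1245 in control libraries 1 to 4 and 2024, 1943, 2053 and 1989 in treated libraries 1 to 4. It rose from 1459 ± 172 to 2002 ± 47.4 (0.46 ± 0.07, limma adjusted p = 3.77e-05). Clcn3, encoding ClC-3 of endosomes and vesicles, was at 4464, 4149, 3991 and 3728 in the controls and 3481, 3435, 3503 and 3461 under SeMet and fell (-0.23 ± 0.04). Clcn4, the near relative ClC-4, fell from 1216 ± 19.6 to 1080.2 ± 49.3 (-0.17 ± 0.05), and exons of the antisense gene Gm45631 overlap 11.5% of it. Per kb, the ratio of Clcn5 to Clcn3 was 0.54, 0.56, 0.52 and 0.50 in control libraries 1 to 4 and 0.87, 0.84, 0.87 and 0.86 in treated libraries 1 to 4. By this measure Clcn3 stayed the higher in every library while the gap narrowed.

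At the surface, Lrrc8d, a subunit of the volume-regulated anion channel, rose from 1574 ± 93.5 to 1929 ± 122 (0.29 ± 0.05). The chloride intracellular channel genes Clic4 and Clic1 diverged: Clic4 held 3081, 3310.0, 2963 and 2961 in the controls and 3401, 3636, 3451 and 3539.7 under SeMet and rose (0.19 ± 0.04), whereas Clic1 was at 1811, 1875, 1826 and 1864 in the controls and 1753, 1636, 1770.0 and 1599.9 under SeMet. Its change of -0.13 ± 0.04 met the main adjustment (limma adjusted p = 0.00929) but was not called over the annotated genes (limma adjusted p = 0.157) or when the libraries were rescaled to their median ratio (limma adjusted p = 0.0733). Ano6, a calcium-activated scramblase and channel, was higher in all treated libraries by 0.14 ± 0.04 and missed the stricter adjustment (limma adjusted p = 0.0665).

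Of 8 annotated sodium pump genes, 2 were listed, both lower. Atp1b3, a beta subunit needed for delivery of the pump to the membrane, had very little spread, with 3859, 3838, 3905 and 3946 in the controls and 3492, 3401, 3474 and 3476 under SeMet, and fell (-0.17 ± 0.03). Per kb it stood at 1627 normalised counts in the controls. From the partner list, Fxyd6, a small regulator of the pump, rose from 1243 ± 82.9 to 1576 ± 97.7.

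Of 28 proton pump genes, pseudogenes included, 4 were listed. Atp6v1a, the subunit that hydrolyses ATP in the cytosolic V1 part, held 8877, 8833, 8843 and 8534 in control libraries 1 to 4 and 7629, 7602, 7767 and 7879 in treated libraries 1 to 4. Atp6ap1, an accessory subunit of the membrane part, held 7150.2, 7477, 7357 and 7313 in the controls and 6362, 6343, 6627 and 6387 under SeMet. Both fell by a similar small amount in all treated libraries (-0.18 ± 0.03 and -0.19 ± 0.03). Atp6v0e2, a small subunit of the membrane part, was instead higher, from 4400.1 ± 73.5 to 4920.3 ± 325 (0.16 ± 0.04). The pseudogene Atp6v0c-ps2 was at 83.9, 139, 126 and 87.6 in the controls and 67.9, 81.0, 89.5 and 69.5 under SeMet, with overlapping groups, and its reads may belong to the parent gene Atp6v0c. Of 20 partners of the pump, 3 were listed: Rogdi, a regulator of its assembly, rose by 0.31 ± 0.05 on the log2 scale, while Vma21, needed to build the membrane part, fell by 0.21 ± 0.04, and Tfeb, a transcription factor of lysosomal genes, differed by -0.25 ± 0.07, short of the stricter adjustment (limma adjusted p = 0.0631).

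Promoter windows from RefSeq (GRCm38.p6, the assembly of mm10, from 250 bases before to 50 after the annotated start) were given for 37 of the 60 members. Windows are shown for 3 of the 4 members that hold the E-box CACGTG, which belongs to the element shared by many lysosomal genes. They are a proton pump gene and a chloride exchanger gene that fell and a receptor gene that rose. The window of the sodium pump gene Atp1b3 also holds it and is not shown. Searched on both strands, CACGTG was in a window of 4 of the 37 members (10.8%) and of 8.09% of 27025 genes. The longer palindrome TCACGTGA, which contains it, was in 1 of 37 (2.70%), Atp6v1a, against 1.12% of genes. The shorter ACGTG, the core of hypoxia elements and also part of CACGTG, was in 9 of 37 (24.3%) against 21.8%. Of the 4 members with CACGTG, Atp6v1a, Clcn4 and Atp1b3 fell and Grin1 rose, beside 21 lower and 16 higher among the 37 with a window. A link between the motif and the direction of change was not tested. Capitals mark the E-box, or TCACGTGA in Atp6v1a. All 3 windows lie on the minus strand and read in the direction of transcription, Atp6v1a at chr16:44139210-44139509, Clcn4 at chr7:7299508-7299807 and Grin1 at chr2:25319138-25319437.
Atp6v1a: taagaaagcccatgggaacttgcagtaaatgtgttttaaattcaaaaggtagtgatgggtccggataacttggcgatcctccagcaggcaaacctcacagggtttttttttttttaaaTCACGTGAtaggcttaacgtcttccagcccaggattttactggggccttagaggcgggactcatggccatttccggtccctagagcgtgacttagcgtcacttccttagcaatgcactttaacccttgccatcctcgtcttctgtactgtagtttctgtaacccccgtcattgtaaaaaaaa
Clcn4: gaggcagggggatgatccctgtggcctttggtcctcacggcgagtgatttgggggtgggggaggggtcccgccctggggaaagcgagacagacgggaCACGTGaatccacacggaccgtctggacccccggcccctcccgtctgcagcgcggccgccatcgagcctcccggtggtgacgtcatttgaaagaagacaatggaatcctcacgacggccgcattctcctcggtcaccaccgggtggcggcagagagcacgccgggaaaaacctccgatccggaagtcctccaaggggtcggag
Grin1: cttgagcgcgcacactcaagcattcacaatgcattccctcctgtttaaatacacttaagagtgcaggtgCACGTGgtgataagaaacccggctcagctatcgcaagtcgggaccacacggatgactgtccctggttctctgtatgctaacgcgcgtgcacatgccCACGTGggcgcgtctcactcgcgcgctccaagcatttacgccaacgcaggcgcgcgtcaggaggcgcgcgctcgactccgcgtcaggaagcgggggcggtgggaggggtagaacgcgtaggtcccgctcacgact

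Ligand-gated receptor genes, known chiefly from neurons, had 13 of 64 members listed. Of these, 5 were higher and 8 lower, beside 47.0% and 53.0% of all listed genes. The family held the largest change in either direction among the 60 members. The largest was in Chrna4, the alpha-4 subunit of nicotinic acetylcholine receptors, which was named after its values were seen because its mean is under 100. Chrna4 (ENSMUSG00000027577, chromosome 2, 181018380 to 181043546) held 159.8, 135, 128 and 109 in control libraries 1 to 4 and 14.4, 35.4, 21.9 and 43.5 in treated libraries 1 to 4. The lowest control, 108.8, was well above the highest treated library, 43.5, and the means differed 4.62-fold (log2 fold change -2.27 ± 0.29, limma adjusted p = 4.72e-05 over the listed and 0.000798 over the annotated genes). Chrnb2, the beta-2 subunit with which alpha-4 forms the commonest brain receptor, was more abundant and slightly higher, at 1615, 1620.0, 1571 and 1502 in the controls and 1689.5, 1667, 1754 and 1785 under SeMet. Its change of 0.13 ± 0.04 passed over the listed genes only (limma adjusted p over the annotated genes = 0.14), and exons of Adar on the other strand overlap 16.3% of it. Per kb the pair stood at 26.5 for Chrna4 and 188 for Chrnb2 in the controls, and at 5.73 and 206 under SeMet.

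The 4 listed subunits of NMDA receptors, calcium-permeable glutamate receptors, divided evenly. Grin1, the subunit that every such receptor needs, held 2227, 2299, 2383 and 2288 in control libraries 1 to 4 and 2565, 2989, 2886 and 2913 in treated libraries 1 to 4 and rose (0.30 ± 0.05, limma adjusted p = 1.44e-05). Exons of its antisense gene Grin1os overlap 13.5% of it. Grin2b was at a low level but higher in every treated library, at 36.8, 35.5, 46.5 and 38.9 in the controls and 86.1, 91.3, 103 and 88.9 under SeMet, the largest rise of the 60 members (1.21 ± 0.15). Grin2d, the most abundant of the 3 listed GluN2 genes per kb, held 524, 561, 611 and 618 in control libraries 1 to 4 and 417, 424, 485 and 460.4 in treated libraries 1 to 4 and fell (-0.37 ± 0.07). Grin2c fell from 36.8, 27.7, 56.0 and 35.4 to 25.8, 15.8, 19.9 and 20.4, a low level at which the highest treated library was close to the lowest control. The ratio of Grin2d to Grin1 per kb went from 0.37 ± 0.02 to 0.23 ± 0.02. In the controls the 3 GluN2 genes stood per kb at 86.9 for Grin2d, 7.74 for Grin2c and 1.59 for Grin2b, and under SeMet at 67.1, 4.07 and 3.72.

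Both listed AMPA receptor genes changed, in opposite directions. Gria2 encodes GluA2, the subunit that makes these glutamate receptors nearly impermeable to calcium when its RNA is edited, and held 1491, 1526, 1548 and 1561 in control libraries 1 to 4 and 1665, 1825, 2089 and 2074 in treated libraries 1 to 4. It rose (0.31 ± 0.06), with SeMet library 1 nearest the controls. Gria3, encoding GluA3, held 573, 543, 494 and 531 in control libraries 1 to 4 and 324, 353, 366 and 392 in treated libraries 1 to 4. Every treated library was below every control (-0.58 ± 0.07, limma adjusted p = 1.02e-06). The ratio of Gria2 to Gria3 per kb was 1.65, 1.78, 1.99 and 1.87 in control libraries 1 to 4 and 3.25, 3.28, 3.62 and 3.36 in treated libraries 1 to 4, higher in each treated library than in any control. That separation follows from the opposite changes of the genes and adds no evidence of its own.

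**Figure D4:**
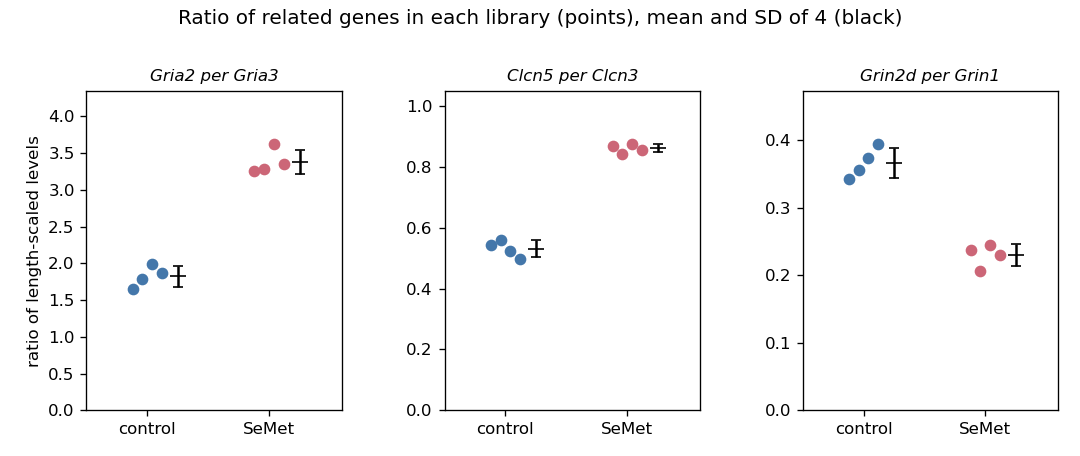
Ratio of the length-scaled levels of 3 pairs of related genes in each library; points are libraries, black marks the mean and SD of 4. The pairs were picked after their values were seen; Grin2d per Grin1 was lower under SeMet, Gria2 per Gria3 and Clcn5 per Clcn3 were higher, in all 4 treated libraries. Each pair joins a gene that rose and a gene that fell, both without overlap, so the ratios had to separate.

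Among the other receptors, the delta glutamate receptor gene Grid1, whose product organises synapses, fell from 767 ± 54.2 to 665 ± 20.1 (-0.20 ± 0.06). Grid2ip, a synaptic scaffold, had a log2 fold change of -0.53 ± 0.16, short of the stricter adjustment (limma adjusted p = 0.072). Gabrd, the delta subunit of GABA-A receptors, held 42.5, 28.9, 28.5 and 29.2 in the controls and 15.3, 12.1, 18.9 and 13.9 under SeMet and fell (-1.05 ± 0.23). P2rx3, an ATP-gated cation channel of sensory neurons, held 17.2, 12.2, 25.4 and 17.7 in the controls and 21.0, 46.6, 33.8 and 33.3 under SeMet, with control 3 above SeMet library 1, and its 0.85 ± 0.26 missed the stricter adjustment (limma adjusted p = 0.0814).

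The 11 members with a mean under 100 had a median size of change of 0.87 on the log2 scale, beside 0.88 for all 375 listed genes of that level, and the 49 members at or above it had a median of 0.24, beside 0.23 for the 2903 listed genes of that level. All 11 reached 1.2-fold, as did all 375 listed genes under 100, and so did 23 of the 49, of which Kcnq1 changed most. Of 23 membrane partners of the channels, 10 were listed, 6 higher and 4 lower, beside 47.0% and 53.0% of all listed genes. Over the annotated genes the counts were 3 and 4, beside 33.1% and 38.2%. Gjd2, the gap junction protein that couples beta cells electrically, rose from 3875 ± 153 to 4835 ± 155 (0.32 ± 0.04), and the mitochondrial outer membrane channel gene Vdac1 fell from 8129 ± 437 to 7176 ± 182 (-0.18 ± 0.04).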

How the data were processed

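RNA was sequenced from 4 control and 4 SeMet-treated libraries, grouped by their titles. STAR and featureCounts were the tools and mm10 the build, per the submitters' processing notes. For versions, settings, strand, annotation and the scaling tool, nothing is given in the sources used here. Signal values as deposited are read as gene counts divided by the authors by 1 size factor per library, because every value of a library was a whole multiple of a common step (relative tolerance 1e-06). The low values were too few for these to pass as recovered reads, so no count test was run. The steps gave only an estimate of the reads per library, and precision at low levels is limited by counting. The table holds 3278 genes that the authors selected by a rule not given in the sources used here.

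Log2(value + 1) was fitted with limma 3.58.1 (R 4.3.3, statmod 1.5.0; trend and robust, treatment only, no filter on low values), with Benjamini-Hochberg adjustment over the 3278 genes, threshold 0.05. The stricter adjustment set p to 1 for every unlisted one of 55450 annotated genes. The fit was tested on simulated data in which most genes were unchanged. The listed genes were selected for differing, so that test does not measure the error rate of the calls here. Variances were moderated over the listed genes alone, so the SE and the p-values under both adjustments carry that selection. Symbols, positions and exon lengths came from GENCODE M21 (GRCm38); 3276 identifiers matched a symbol. Without known strand settings, reads of overlapping genes cannot be told apart; exons of another gene overlap over 10% of 4 members.

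Members and lists were chosen with earlier results of these data known. Described with every library were the 6 largest rises and 6 largest falls among members with a mean of at least 100, the 2 most abundant of each family of 3 or more, and the listed genes of the excitability list, 32 members in all; the other 28 were described after their values were seen. Values of 5 of the 60, 2 of the largest falls among them, are not reported here, though all counts include them. Alternatives were other pseudocounts, a filter at a mean of 50, median-ratio rescaling, plain limma, a replicate block and leaving out each library.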

Additional observations from a re-analysis of the deposited data

Results flagged for a closer look

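A library standing apart from the other 3 of its group, by Dixon's test, was found in 4 of the 120 member and group combinations; chance flags about 1 in 20. Gabrd was at 42.5 normalised counts in control 1, against 28.5 to 29.2 in the other controls. Kcnc4 was at 119.4 in SeMet library 3, against 88.5 to 93.6 in the other treated libraries. Atp6ap1 was at 6627 in SeMet library 3, against 6343 to 6387. Atp6v1a was at 8534 in control 4, against 8833 to 8877. In each of these genes the groups still did not overlap, and leaving out the library kept its limma call over the listed genes.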

How the results depend on the processing

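The counts of 26 members higher and 34 lower were the same with pseudocounts of 0.5 and 5, with limma without trend and robust estimation, and without any 1 library (26 to 26 higher and 34 to 34 lower). They were 25 and 32 among genes with a mean of at least 50, 26 and 33 after rescaling by the median ratio, which shifts log2 fold changes by 0.04, and 19 and 25 when adjusted over all annotated genes. Of 897 values for single members under these alternatives, 880 kept direction and call, 17 kept direction and lost the call, and 0 reversed. The members were selected for differing in these same libraries, and the main rule called 100% of the table. Kept calls are therefore no separate support, and the share of all listed genes that kept theirs is not given. The calls lost were 16 under the stricter adjustment and that of Clic1 after rescaling. No left-out library ended a call or moved a member's log2 fold change by over 1.5 times. Correlations of deviations between same-numbered libraries were 0.01, 0.15, 0.02 and -0.01. Between libraries of unlike number they ran from -0.14 to 0.14, so the 0.15 of libraries 2 was the highest of all. The labels do not state a pairing. These correlations, taken over genes chosen for differing, cannot decide whether the numbers pair the libraries. With a replicate block the counts were again 26 and 34. Members under a mean of 100 rest on few reads, and selection by the authors bounds what any count here can show.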
